A study of Mus musculus with 9 samples.

Results

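The 10 genes described here encode the NF-κB transcription factor subunits (Nfkb1, Nfkb2, Rel, Rela and Relb), the proteins that hold them in check (Nfkbia, Nfkbib, Nfkbie and Tnfaip3) and the catalytic kinase that releases them (Ikbkb). They were taken by gene symbol, and each symbol named 1 of the 37104 loci in the tables. Their mRNA was measured by RNA-seq in primary mouse lung endothelial cells (MLEC) of 3 groups with 3 libraries each, to compare endothelial cells with Cre and floxed genes of JNK, a stress-activated protein kinase, with control cells. The values are FPKM, fragment numbers scaled for exon length and library size, so levels can be set side by side between genes. ECtrl cells were Cdh5-Cre+ Jnk1+/+ Jnk2+/+ Jnk3-/-, EfCtrl cells were Cdh5-Cre- Jnk1LoxP/LoxP Jnk2LoxP/LoxP Jnk3-/-, and E3KO cells were Cdh5-Cre+ Jnk1LoxP/LoxP Jnk2LoxP/LoxP Jnk3-/-. All 3 groups therefore lacked Jnk3, and the Cre that acts on the floxed alleles was driven from the endothelial Cdh5 promoter. The mice were C57BL/6J adults of 10 to 12 weeks. Every library came from an isolation of its own, from the pooled lungs of several mice, with repeated selection on magnetic beads that carried an antibody to ICAM2 and culture between.

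NF-κB is a dimer of Rel-family proteins that rests in the cytoplasm bound to an inhibitor of the IκB family. Cytokine or Toll-like receptors activate the IKK complex, which marks IκB for destruction and lets the dimer enter the nucleus, where it binds κB sites in DNA. Among its known targets in endothelium are leukocyte adhesion molecules and chemokines, and also its own inhibitors Nfkbia and Tnfaip3, which close a negative feedback loop.

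The labels were first checked on the deleted genes. Mapk8, which encodes JNK1, was at 17.0, 15.0 and 17.9 FPKM in ECtrl and at 16.7, 14.0 and 15.1 FPKM in EfCtrl. It was at 20.7, 8.77 and 4.65 FPKM in E3KO, so the library labelled E3KO replicate 1 was above every control. Mapk9, which encodes JNK2, was at 27.6, 35.1 and 20.7 FPKM in E3KO against 42.7 to 50.9 FPKM in the 6 controls, and all 3 E3KO libraries were below them. The library labelled E3KO replicate 1 also stood apart in its FPKM sum, 9841810 against 656089 to 908401 in the other 8 libraries, with 96.4% of the sum in its 10 highest symbols. It listed 19239 symbols at 0, against 16436 to 17964 elsewhere. Without the symbols that averaged 5000 FPKM or more, the sums of all 9 libraries lay between 388537 and 433172. Where leaving this library out moved a log2 fold change given below by over 1.5 times, turned its direction or changed its call, the value without it is given too. For Nfkb1 and Tnfaip3 that value is from the permutation test and not from limma.

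The labelled cell type was then checked on marker genes. Pecam1 was between 643 and 798 FPKM and Cdh5 between 613 and 943 FPKM over the 9 libraries. The summed FPKM of 8 measured endothelial markers was 3124 ± 249 (SD, n = 6) in the controls and 3639 ± 185 (SD, n = 3) in E3KO, with Emcn the most abundant. Epithelial markers summed to 2.06 FPKM or less in 8 libraries and to 49.5 FPKM in the library labelled E3KO replicate 1, of which Scgb1a1, a club cell secretory protein, gave 46.2. The 13 leukocyte markers summed to 57.3, 167 and 138 FPKM in ECtrl, to 203, 286 and 162 in EfCtrl and to 210, 317 and 349 in E3KO. Lyz2 was the most abundant of them in the mean of the 9 libraries, and the T cell marker Cd3e was at 0 in every library. Smooth muscle and fibroblast markers summed to 11.7, 19.2 and 25.5 FPKM in E3KO and to between 12.8 and 80.8 FPKM in the controls. In bulk RNA, fewer cells of a type and less RNA per cell cannot be told apart.

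The members spanned a wide range of levels in control cells. Nfkb1, the precursor of p50, was the most abundant at 44.5 FPKM, above 82.5% of the 10605 genes tested. Nfkbia (IκBα) followed at 29.1, Ikbkb (IKKβ) at 18.4 and Rela (p65) at 16.6 FPKM. Nfkbie (IκBε) was at 6.51, Nfkb2 (p100/p52) at 5.18, Relb at 3.97 and Nfkbib (IκBβ) at 2.00 FPKM. Tnfaip3, the ubiquitin-editing enzyme A20, was at 1.42 FPKM and Rel (c-Rel) was lowest at 0.610. This order held within each of the 6 control libraries for 7 of 9 neighbouring pairs. The exceptions were Ikbkb above Rela in 4 of 6 libraries, with a mean log2 ratio of 0.16 ± 0.19 (SD, n = 6) that is within the spread, and Nfkb2 above Relb in 5 of 6, with a ratio of 0.41 ± 0.28 (SD, n = 6). Among the members, the transcripts of p50, IκBα, IKKβ and p65 were thus the 4 highest, and those of A20 and of c-Rel the lowest.

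**Figure D1:**
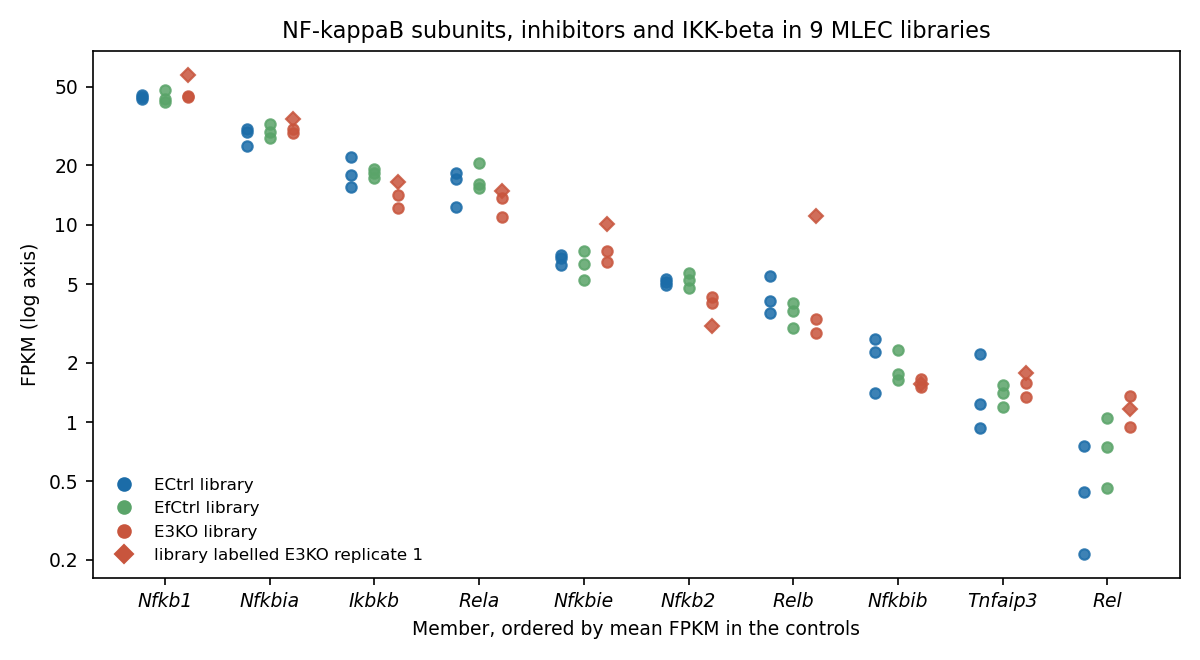
FPKM of each member in every library (log axis), ordered by the mean of the 6 control libraries; colours give the groups and the diamond is the library labelled E3KO replicate 1. Levels run from Nfkb1, near 44.5 FPKM in controls, to Rel at 0.610, and the 3 E3KO points lie fully below the controls for Nfkb2 alone.

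κB-type sequences were looked for in the promoters of the members, because the feedback loop runs through such sites. Of the members, 7 had an entry among RefSeq promoters (GRCm38.p6, the same build as mm10), and the 250 bases before each transcription start were searched on both strands for GGGNNTTNCC, in which N is any base. A match was present in 4 of the 7 (Nfkb2, Rel, Nfkbia and Tnfaip3), against 4.71% of the 27025 genes in the table. For each start with a match, 30 bases around 1 match or pair of overlapping matches are shown 5′ to 3′ on the strand of the gene, with the matching bases in capitals, to let the κB-type letters of the members be compared.
Nfkbia, chr12:55492657-55492686, minus strand: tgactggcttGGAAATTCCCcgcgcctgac
Rel, chr11:23771041-23771070, minus strand: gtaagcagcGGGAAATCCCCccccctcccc
Tnfaip3, chr10:19015411-19015440, minus strand: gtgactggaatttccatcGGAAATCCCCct
Nfkb2, the first start, chr19:46304688-46304717, plus strand: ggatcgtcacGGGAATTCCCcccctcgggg
Nfkb2, the third start, chr19:46305695-46305724, plus strand: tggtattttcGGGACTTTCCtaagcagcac

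The Nfkbia match began 29 bases before the start, the Tnfaip3 match 12 bases before it, and the Rel match, in which a pair of overlapping matches shares 9 bases, 92 bases before it. The first Nfkb2 start had 1 match at 39 bases and overlapping matches at 11 and 10 bases, of which the match at 39 bases is shown. In the same gene the third start had 1 at 225 bases, and the second start of Nfkb2 and the second of Tnfaip3 had none. Such a match is a description of the letters, and binding was not measured. Rela, Nfkbib and Nfkbie had no match in this window. Sequences that depart from the searched letters were not counted, so no match does not mean that a κB site is absent.

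None of the members passed the test in E3KO against either control group. A limma fit to log2(FPKM + 1) over all 9 libraries tested 8 of the 10 members, those with a group mean of at least 2 FPKM. Rel and Tnfaip3 stayed under this minimum in every group, and Nfkbib passed it only through ECtrl. Passing through its high group favoured lower estimates of Nfkbib in every comparison that uses ECtrl. Its part in the counts and the median below therefore shows nothing. Against ECtrl, 0 of the 8 had a Benjamini-Hochberg adjusted p under 0.05, where 2.25% of all genes tested did, and 1 had an unadjusted p under 0.05 (20.1% of all genes). Against EfCtrl the count was also 0 (0.952% of all genes), with 1 by unadjusted p (17.7%). Both comparisons use the same E3KO libraries. Against the mean of both controls 0 of 8 were called (4.8% of all genes) and 2 had an unadjusted p under 0.05 (23.8%), namely Nfkb2 and Ikbkb. The 4 members with a higher estimate there were Nfkb1, Relb, Nfkbia and Nfkbie, the 4 with a lower one Nfkb2, Rela, Nfkbib and Ikbkb, and the median log2 fold change was -0.05 beside -0.08 over all genes tested. Between the control groups 0 of 8 were called (0.0% of all genes), and 0 had an unadjusted p under 0.05 (1.84%).

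**Figure D2:**
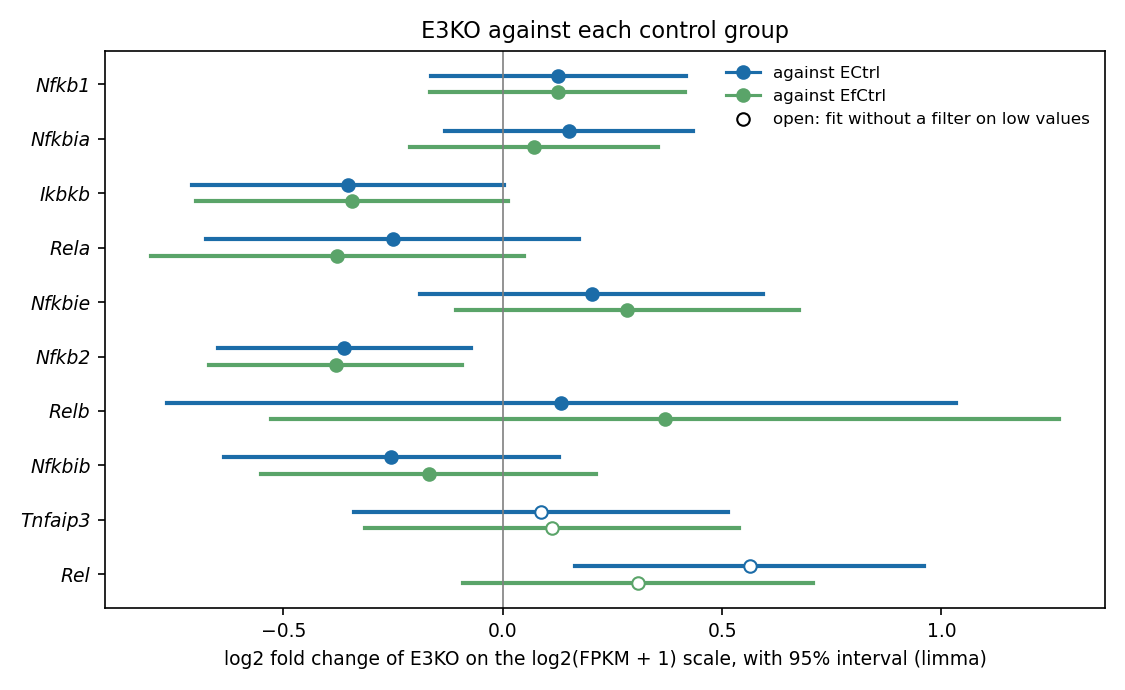
Log2 fold change of each member in E3KO against ECtrl and against EfCtrl (log2(FPKM + 1) scale), with the 95% interval from limma; open points are Rel and Tnfaip3 from the fit without a filter on low values. Nfkb2 is the member whose intervals lie below 0 in both comparisons, and Relb has the widest intervals.

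Of the subunits, Nfkb2 was lower in every E3KO library than in any control. Nfkb2 (chromosome 19, 46304737 to 46327156 of mm10) encodes p100, which is both an inhibitor of RelB and, once cut to p52, its partner in the non-canonical pathway. It was at 5.13, 4.95 and 5.31 FPKM in ECtrl, at 5.67, 5.24 and 4.77 in EfCtrl and at 3.07, 4.03 and 4.31 in E3KO. The lowest E3KO value belonged to the library labelled E3KO replicate 1, and the other 2 E3KO libraries were also below all 6 controls. The mean was 3.80 ± 0.652 FPKM (SD, n = 3) in E3KO and 5.18 ± 0.312 (SD, n = 6) in the controls. The limma log2 fold change was -0.36 (SE 0.13, adjusted p = 0.17) against ECtrl and -0.38 (SE 0.13, adjusted p = 0.182) against EfCtrl. Against both it was -0.37 with a 95% interval from -0.62 to -0.12 and an adjusted p of 0.0933. In an exact two-sided permutation of the 3 E3KO and 6 control libraries on log2(FPKM + 0.1) the difference was -0.45 with p = 0.0119, the smallest value this design allows, and without the library labelled E3KO replicate 1 it was -0.30 with p = 0.0357, again the smallest possible. Neither value is adjusted over genes. Libraries of E3KO did not overlap the controls in either direction for 16.6% of all genes tested and were wholly below them for 11.5%, so separation of this kind in 1 of the 8 members tested is near the background. The locus as given in the tables runs on into Psd on the opposite strand, which has a row of its own at 0.0117 to 0.133 FPKM.

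Nfkb1 (chromosome 3, 135584655 to 135691547) was the subunit with the least spread among the controls, with a coefficient of variation of 4.94% over the 6 libraries. It was at 45.4, 44.6 and 43.3 FPKM in ECtrl, at 48.3, 42.1 and 43.2 in EfCtrl and at 57.6, 44.5 and 44.8 in E3KO. The highest value was that of the library labelled E3KO replicate 1, and the other 2 E3KO libraries lay within the control range. The log2 fold change against both controls was 0.13, with a 95% interval from -0.13 to 0.38 and an adjusted p of 0.507 in limma. By exact permutation the difference was 0.13 with p = 0.155, and 0.01 with p = 0.964 without that library. The limma estimate ranged from 0.0054 to 0.19 with 1 library left out.

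Rela (chromosome 19, 5637483 to 5648130) encodes p65, the main activating subunit of the classical pathway. It was at 17.0, 12.3 and 18.3 FPKM in ECtrl, at 20.6, 16.1 and 15.4 in EfCtrl and at 14.7, 13.7 and 10.9 in E3KO. All 3 E3KO libraries were below all 3 EfCtrl libraries, but they overlapped ECtrl through its replicate 2. The share of all genes that separate from 1 control group in this way was not computed, here or for Rel and Ikbkb below. Such a separation is therefore a description only. The estimate was -0.25 (adjusted p = 0.472) against ECtrl, -0.38 (adjusted p = 0.334) against EfCtrl and -0.31 with a 95% interval from -0.68 to 0.06 (adjusted p = 0.273, limma) against both. With 1 library left out it ranged from -0.41 to -0.13 against ECtrl, from -0.46 to -0.26 against EfCtrl and from -0.40 to -0.20 against both, smallest against ECtrl and against both without E3KO replicate 3 and against EfCtrl without EfCtrl replicate 1. The exact permutation difference against both was -0.33 with p = 0.107.

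Relb (chromosome 7, 19606217 to 19629438) encodes the transactivating partner of p52. It was at 4.12, 3.57 and 5.47 FPKM in ECtrl, at 3.99, 2.99 and 3.65 in EfCtrl and at 11.0, 3.34 and 2.84 in E3KO. Here 1 library set the direction. The library labelled E3KO replicate 1 was above every other, and the remaining 2 were below every ECtrl library. The limma estimate against both controls was 0.25 (SE 0.34, adjusted p = 0.672) with all libraries and -0.27 without that one. The exact permutation difference was 0.27 with p = 0.655 and turned to -0.33 with p = 0.214.

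Rel (chromosome 11, 23741514 to 23770970) encodes c-Rel, a subunit best known from lymphocytes and myeloid cells. It was at 0.444, 0.753 and 0.215 FPKM in ECtrl, at 1.04, 0.461 and 0.743 in EfCtrl and at 1.16, 0.945 and 1.36 in E3KO. The E3KO libraries were above all ECtrl libraries and overlapped EfCtrl. By exact permutation against both controls the difference was 0.92 on the log2(FPKM + 0.1) scale with p = 0.0595, and 0.91 with p = 0.143 without the library labelled E3KO replicate 1. In the limma fit without a filter on low values the adjusted p was 0.191 against ECtrl and 0.509 against EfCtrl. The leukocyte marker sums given above were also lowest in ECtrl, with a mean of 121 FPKM against 217 in EfCtrl and 292 in E3KO, and their part in the Rel values was not tested.

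**Figure D3:**
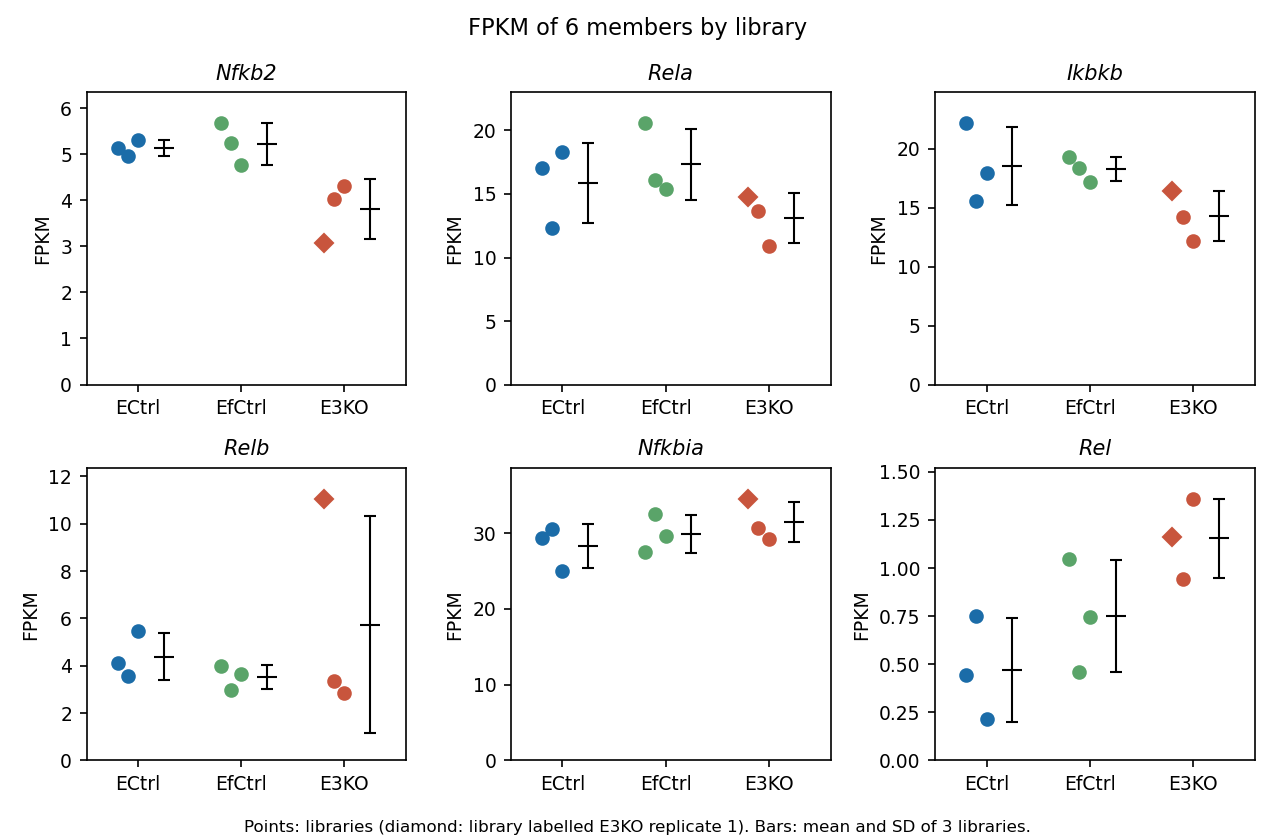
FPKM of Nfkb2, Rela, Ikbkb, Relb, Nfkbia and Rel by library (linear axes from 0), with the mean and SD of each group of 3 beside the points; the diamond is the library labelled E3KO replicate 1. E3KO lies below all controls for Nfkb2, below all but ECtrl replicate 2 for Ikbkb, and the wide E3KO bar of Relb comes from 1 library at 11.0 FPKM.

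None of the inhibitors tested passed the test. Nfkbia (chromosome 12, 55489411 to 55492647) encodes IκBα, the fast feedback inhibitor whose promoter match is shown above. It was at 29.4, 30.6 and 25.0 FPKM in ECtrl, at 27.5, 32.6 and 29.6 in EfCtrl and at 34.5, 30.7 and 29.3 in E3KO. The groups overlapped. The log2 fold change was 0.15 (adjusted p = 0.515) against ECtrl and 0.07 (adjusted p = 0.784) against EfCtrl, and 0.11 against both with a 95% interval from -0.13 to 0.36 (limma). Without the library labelled E3KO replicate 1 these estimates were 0.09, 0.01 and 0.05. On the log2(FPKM + 1) scale the interval with all libraries leaves out a doubling or a halving of the transcript in either direction, and it does not show that the levels were equal.

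Nfkbie (chromosome 17, 45555716 to 45563169) encodes IκBε, a slower inducible inhibitor. It was at 6.77, 6.28 and 7.04 FPKM in ECtrl, at 6.35, 5.25 and 7.36 in EfCtrl and at 10.1, 7.33 and 6.48 in E3KO. Again the library labelled E3KO replicate 1 was highest and the others were within the control range. The estimate against both controls was 0.24 (adjusted p = 0.345, limma) and 0.08 without that library. Nfkbib (chromosome 7, 28756174 to 28788665) encodes IκBβ, a constitutive inhibitor. It was at 2.27, 1.41 and 2.65 FPKM in ECtrl, at 2.31, 1.64 and 1.75 in EfCtrl and at 1.55, 1.50 and 1.65 in E3KO. The E3KO libraries lay in the lower part of the control range, with an estimate of -0.21 against both controls (adjusted p = 0.398, limma). Passing the FPKM minimum only through ECtrl favoured this direction. The Nfkbib locus as given spans Ccer2 and Sirt2 on the other strand, and Sirt2 has a row of its own at 31.9 to 46.3 FPKM. Whether strand was used in counting is not given in the sources used here.

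Tnfaip3 (chromosome 10, 19000910 to 19015657) encodes A20, which shuts off signalling at the receptor complexes. It was at 0.938, 1.24 and 2.22 FPKM in ECtrl, at 1.19, 1.53 and 1.40 in EfCtrl and at 1.78, 1.58 and 1.33 in E3KO. All E3KO libraries lay within the range of ECtrl. The exact permutation difference against both controls was 0.17 with p = 0.5, and 0.08 with p = 0.75 without the library labelled E3KO replicate 1. In the limma fit without a filter on low values the log2 fold change was 0.10, with a 95% interval from -0.27 to 0.47.

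Ikbkb (chromosome 8, 22659212 to 22706589) encodes IKKβ, which phosphorylates IκB in the classical pathway. It was at 22.2, 15.6 and 17.9 FPKM in ECtrl, at 19.3, 18.4 and 17.2 in EfCtrl and at 16.4, 14.2 and 12.2 in E3KO. Every E3KO library was below every EfCtrl library, and ECtrl replicate 2 overlapped them. The mean was 14.3 ± 2.13 FPKM (SD, n = 3) in E3KO and 18.4 ± 2.21 (SD, n = 6) in the controls. The log2 fold change was -0.35 (adjusted p = 0.253) against ECtrl, -0.34 (adjusted p = 0.298) against EfCtrl and -0.35 (95% interval -0.66 to -0.04, adjusted p = 0.169, limma) against both. With 1 library left out it ranged from -0.46 to -0.22 against ECtrl, from -0.44 to -0.24 against EfCtrl and from -0.45 to -0.25 against both. In contrast to Relb, the difference did not come from the library labelled E3KO replicate 1, since the exact permutation difference was -0.37 with p = 0.0238 with it and -0.47 with p = 0.0357 without it. In the same exact permutation test, leaving out ECtrl replicate 3 or any 1 EfCtrl library gave p = 0.0536, leaving out E3KO replicate 2 gave 0.0714 and leaving out E3KO replicate 3 gave 0.143, with the same sign. These p-values are not adjusted over the members.

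For 1 pair of inhibitor and subunit, Nfkbia and Rela, the ratio was compared within each library, where library scaling cancels. Ratios of other pairs, such as Nfkbia to the more abundant Nfkb1, were not computed. The log2 ratio of Nfkbia to Rela was 0.78, 1.30 and 0.45 in ECtrl, 0.42, 1.01 and 0.94 in EfCtrl and 1.22, 1.16 and 1.42 in E3KO. ECtrl replicate 2 overlapped E3KO, and the other 5 controls were below it. The mean was 1.26 ± 0.13 (SD, n = 3) in E3KO and 0.82 ± 0.34 (SD, n = 6) in the controls, a difference of 0.45 with p = 0.0714 by exact two-sided permutation.

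Over the 9 libraries the members did not move as a block. The median Pearson r of the 28 pairs of tested members on log2(FPKM + 1) was 0.15. The closest pairs were Relb with Nfkbie (0.84), Relb with Nfkb1 (0.84) and Rela with Ikbkb (0.84), while Nfkb2 ran opposite to Nfkbie (-0.81) and Nfkbia to Nfkbib (-0.80). The 3 groups are pooled in these values, and the library labelled E3KO replicate 1 was the extreme of Nfkb1, Nfkb2, Relb, Nfkbia and Nfkbie, so these values are a description only. The genes most like the mean of the standardised members were Iffo1 (r = 0.97), Osbpl5 (0.96), Dnajb5 (0.95), Pdia5 (0.95) and Gps2 (0.95).

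The rest of the pathway was then read from lists of genes by role. The receptors and adaptors that feed signals into IKK were all above the FPKM minimum (22 of 22). Against both controls 8 had higher and 14 lower estimates, with a median log2 fold change of -0.17 beside -0.08 over all genes, and 1 was called (4.8% of all genes). Tnfrsf1b (TNF receptor 2) was at 3.43, 3.53 and 3.55 FPKM in ECtrl, at 4.18, 4.72 and 3.74 in EfCtrl and at 2.07, 2.41 and 2.90 in E3KO. It fell by 0.49 on the log2 scale (SE 0.11, adjusted p = 0.0411, limma) and was lower in 3 of 3 E3KO libraries, but the call was lost when any 1 of the 9 libraries was left out, with adjusted p between 0.0663 and 0.101, and when each library was centred at its median (adjusted p = 0.0637). Against ECtrl 0 of 22 were called (2.25% of all genes) and 5 had an unadjusted p under 0.05 (20.1%). Against EfCtrl 0 were called (0.952%) and 7 had such a p (17.7%).

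Tnfrsf1a and Ripk1, the most abundant of these genes, pointed the other way without passing the test. Tnfrsf1a (TNF receptor 1), which carries most TNF signalling to NF-κB, was at 48.7 ± 4.23 FPKM (SD, n = 6) in controls and 60.8 ± 12.1 (SD, n = 3) in E3KO, a log2 fold change of 0.30 (adjusted p = 0.25, limma). It was at 46.8 FPKM in the library labelled E3KO replicate 1 and at 68.5 and 67.1 in the others, and without that library the log2 fold change was 0.47 (adjusted p = 0.0625, limma). Ripk1, the kinase scaffold next to that receptor, was at 23.8 ± 1.92 (SD, n = 6) and 27.6 ± 3.29 FPKM (SD, n = 3), a log2 fold change of 0.20 (adjusted p = 0.303, limma). The Ripk1 locus as given also spans Nqo2 and Serpinb6a. Irak1, named after its values were seen, was near Ripk1 in abundance, at a mean of 23.4 FPKM in controls. It was at 7.64, 18.8 and 19.9 FPKM in E3KO, lowest in the library labelled E3KO replicate 1, so it did not point higher. In 7 of the 22 genes all E3KO libraries were below all controls (11.5% of all genes), and in 0 were they all above (5.18%). Traf1, an adaptor of the TNF receptor family, and Il1r1, the interleukin 1 receptor, were among the 7 and were picked out after their values were seen. Traf1 was at 10.6, 14.3 and 10.8 FPKM in ECtrl, at 11.1, 9.56 and 9.71 in EfCtrl and at 3.63, 6.58 and 8.80 in E3KO (log2 fold change -0.77, adjusted p = 0.0895, limma). The library labelled E3KO replicate 1 was the lowest, and without it the log2 fold change of Traf1 was -0.47 (adjusted p = 0.131, limma). Il1r1 had a mean of 4.82 ± 1.04 FPKM (SD, n = 3) in E3KO and 7.47 ± 0.997 (SD, n = 6) in controls, with a log2 fold change of -0.55 and an adjusted p of 0.0718 in limma. Without the library labelled E3KO replicate 1 it was -0.69 with an adjusted p of 0.0391, which is past the threshold.

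The kinases and signal complexes around IKK showed small estimates. Of 11 genes 9 were tested, 7 with a higher and 2 with a lower estimate against both controls, and a median of 0.06 beside -0.08 over all genes. The calls were 0 against both controls (4.8% of all genes), 0 against ECtrl (2.25%) and 0 against EfCtrl (0.952%). By unadjusted p there were 1 against both controls (23.8% of all genes), 0 against ECtrl (20.1%) and 1 against EfCtrl (17.7%). The most abundant were Bcl10, an adaptor of the antigen receptor and G protein branch, at 46.3 ± 3.09 FPKM (SD, n = 6) in controls and 50.8 ± 6.86 (SD, n = 3) in E3KO, and Tab2, which recruits the kinase TAK1, at 43.8 ± 3.44 (SD, n = 6) and 46.0 ± 6.17 (SD, n = 3). The genes of the other IKK subunits had log2 fold changes of -0.09 for Chuk (IKKα) and 0.01 for Ikbkg (NEMO), with adjusted p of 0.618 and 0.948 in limma. Without the library labelled E3KO replicate 1 they were -0.05 and 0.03.

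Other inhibitors and modulators were tested for 10 of 17 genes, with 7 higher and 3 lower estimates and a median of 0.07 beside -0.08 over all genes. Against both controls 0 were called (4.8% of all genes) and 1 had an unadjusted p under 0.05 (23.8%). The counts were 0 and 0 against ECtrl (2.25% and 20.1% of all genes) and also 0 and 0 against EfCtrl (0.952% and 17.7%). Tax1bp1 and Rnf11, partners of A20 in the ubiquitin-editing complex, were the most abundant. Tax1bp1 was at 86.3 ± 3.59 FPKM (SD, n = 6) in controls and 91.6 ± 6.41 (SD, n = 3) in E3KO. Rnf11 was at 73.3 to 93.9 FPKM in the 6 controls and at 99.3, 95.4 and 99.3 in E3KO, all E3KO libraries above all controls, with a log2 fold change of 0.23 and an adjusted p of 0.215 in limma. It was the 1 gene of the 10 tested in which the groups did not overlap (16.6% of all genes in either direction, 5.18% wholly above). Both were thus far more abundant than Tnfaip3 itself.

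Known endothelial targets of NF-κB split into a few that rose and many that did not pass the test. Of 23 listed genes 15 were tested, and 4 were called higher and 0 lower in E3KO against both controls (1.54% and 3.26% of all genes). All 4 act in inflammation. The median log2 fold change of the 15 was 0.07 beside -0.08 over all genes. Against ECtrl the same 4 genes were called higher and 0 lower (0.82% and 1.43% of all genes), but with 1 library left out 0 to 2 targets were called, 0 of them without E3KO replicate 3 or any 1 EfCtrl library. With a pseudocount of 0.1 the count was 2 and without a filter on low values 0. Against EfCtrl 0 were called in either direction (0.368% and 0.585% of all genes), with 5 higher and 1 lower by unadjusted p (17.7% in either direction) and adjusted p of 0.0525 to 0.0678 for the 4. The difference between the E3KO effects against the 2 controls was not tested.

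Icam1, the endothelial ligand of leukocyte integrins, was at 5.02, 8.38 and 9.29 FPKM in ECtrl, at 9.24, 10.4 and 7.82 in EfCtrl and at 28.1, 18.8 and 21.9 in E3KO. All E3KO libraries were well above all controls, and the log2 fold change against both was 1.37 (SE 0.20, adjusted p = 0.014, limma). The Icam1 locus as given also spans Icam4 and Icam5 on the same strand, whose own rows were at 0 and at 0 to 0.0168 FPKM. Selp (P-selectin), which captures rolling leukocytes, was at 15.9, 33.7 and 30.6 FPKM in ECtrl, at 29.2, 32.8 and 30.3 in EfCtrl and at 74.2, 64.6 and 82.4 in E3KO, a log2 fold change of 1.36 (SE 0.22, adjusted p = 0.0182, limma). The Selp locus as given runs on over F5 on the same strand, whose own row was at 0.107 to 2.20 FPKM. Ptgs2 (cyclooxygenase 2), the inducible enzyme of prostaglandin synthesis, was at 0.583, 2.93 and 3.44 FPKM in ECtrl, at 2.05, 3.21 and 2.57 in EfCtrl and at 11.4, 9.16 and 15.9 in E3KO, a log2 fold change of 1.97 (SE 0.33, adjusted p = 0.0204, limma). ECtrl replicate 1 was the lowest library for each of these 3 genes. Ccl2, the monocyte chemokine, was the fourth called and is named after its values were seen. It was at 144, 269 and 239 FPKM in ECtrl, at 188, 287 and 178 in EfCtrl and at 537, 482 and 514 in E3KO, a log2 fold change of 1.27 (SE 0.22, adjusted p = 0.0231, limma).

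**Figure D4:**
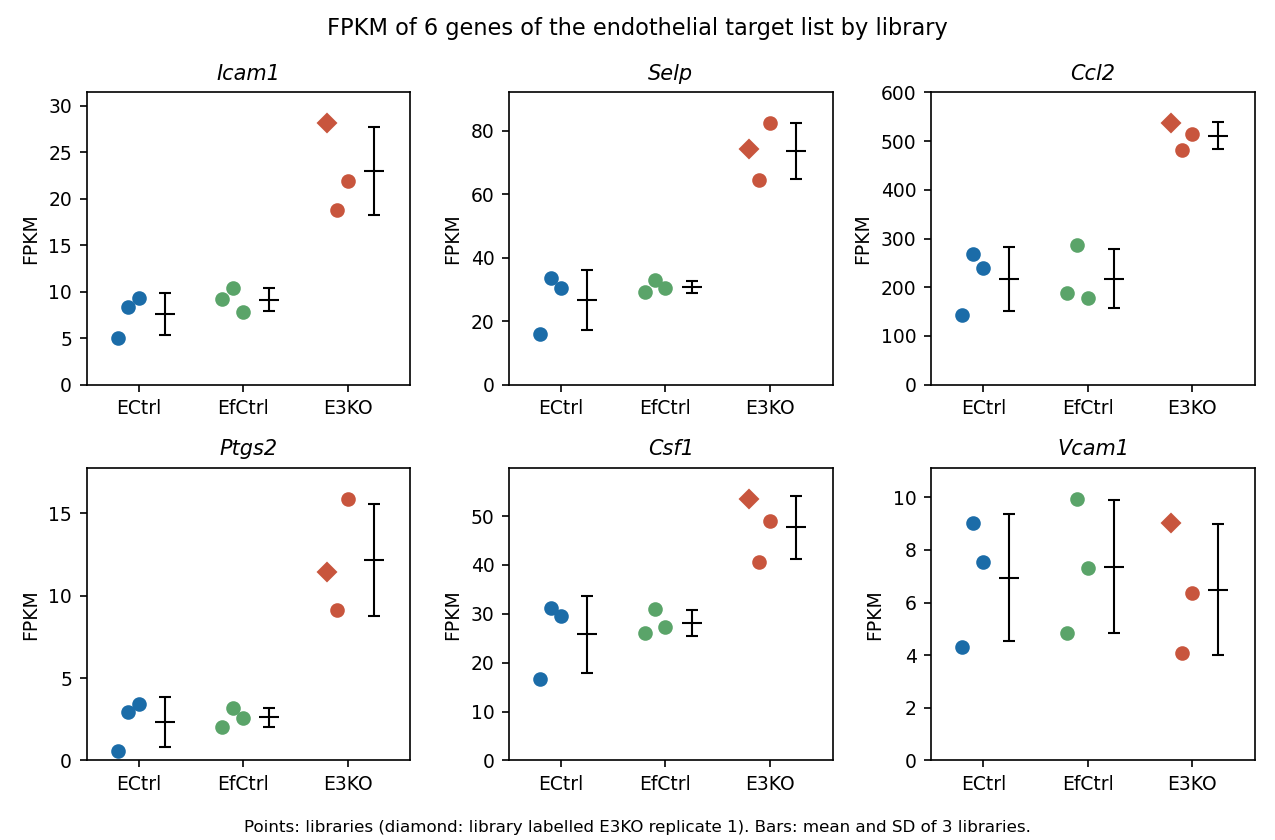
FPKM of Icam1, Selp, Ccl2, Ptgs2, Csf1 and Vcam1 by library (linear axes from 0), with the mean and SD of each group of 3; the diamond is the library labelled E3KO replicate 1. E3KO lies above all 6 controls in every panel except Vcam1, where the groups overlap.

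These differences kept their direction without the library labelled E3KO replicate 1. Without it the log2 fold changes against both controls were 1.22 for Icam1 (adjusted p = 0.0319), 1.35 for Selp (0.0394) and 1.99 for Ptgs2 (0.0423), and Ccl2 had 1.23 with an adjusted p of 0.0543. The calls did depend on other libraries. Without E3KO replicate 3 none of the 4 passed, with adjusted p from 0.0746 to 0.0916, and without EfCtrl replicate 1 or EfCtrl replicate 3 only Icam1 did. Leaving out E3KO replicate 2 ended the call of Ccl2 alone (adjusted p = 0.0565).

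Other genes of the target list, named after their values were seen, had estimates in different directions, and none of those tested passed the test. Csf1, the macrophage growth factor, was at 16.7, 31.1 and 29.6 FPKM in ECtrl, at 26.0, 31.1 and 27.2 in EfCtrl and at 53.4, 40.6 and 48.9 in E3KO, with a log2 fold change of 0.82 (adjusted p = 0.0563, limma). Vcam1, the integrin ligand often read beside Icam1, was at 4.30, 9.01 and 7.54 FPKM in ECtrl, at 4.86, 9.93 and 7.31 in EfCtrl and at 9.03, 4.08 and 6.36 in E3KO, with a log2 fold change of -0.13 (95% interval -0.80 to 0.55), and -0.37 without the library labelled E3KO replicate 1. Gadd45b, a stress-response gene, was at 9.55, 4.50 and 4.53 FPKM in ECtrl, at 7.61, 5.90 and 8.63 in EfCtrl and at 0.696, 3.54 and 3.42 in E3KO, with a log2 fold change of -1.22 (adjusted p = 0.0924, limma). The library labelled E3KO replicate 1 was the lowest, and without it the log2 fold change of Gadd45b was -0.75 (adjusted p = 0.157, limma). Sele (E-selectin) stayed under the FPKM minimum, at 0.112 to 0.480 FPKM in the controls and at 2.56, 0.611 and 0.854 in E3KO, the highest of them in the library labelled E3KO replicate 1. Of the 15 tested targets E3KO did not overlap the controls in 7 (16.6% of all genes), 5 above and 2 below. Within 250 bases before the start, the κB letters searched above were in 7 of 21 target genes with a promoter entry (4.71% of all genes in the table). These were Ccl20, Cxcl1, Cxcl2, Cxcl10, Il6, Csf1 and Bcl2l1, and Icam1, Selp and Ptgs2 had no match in this window. The search counts exact matches only, so no match does not mean that a κB site is absent. The Icam1 window holds ggaaattcct, which departs from the searched letters in its last base alone. Ccl2 had no promoter entry and could not be searched.

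Leukocyte markers also had higher estimates in E3KO, without passing the test. Of the 6 leukocyte markers tested, 6 had higher estimates in E3KO against both controls, 4 of them with an unadjusted p under 0.05 (23.8% of all genes) and 0 called (4.8%), and their log2 fold changes had a median of 0.82 beside -0.08 over all genes. Against ECtrl 6 of 6 were higher, with a median of 1.08, 6 by unadjusted p (20.1% of all genes) and 0 called (2.25%). Against EfCtrl 5 of 6 were higher, with a median of 0.39, 1 by unadjusted p (17.7%) and 0 called (0.952%). In EfCtrl against ECtrl 6 of 6 were higher, with a median of 0.86, 2 by unadjusted p (1.84%) and 0 called (0.0%), and the 15 targets there had a median of 0.04 with 0 by unadjusted p. The part of leukocyte RNA in the target values was not tested.

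**Figure D5:**
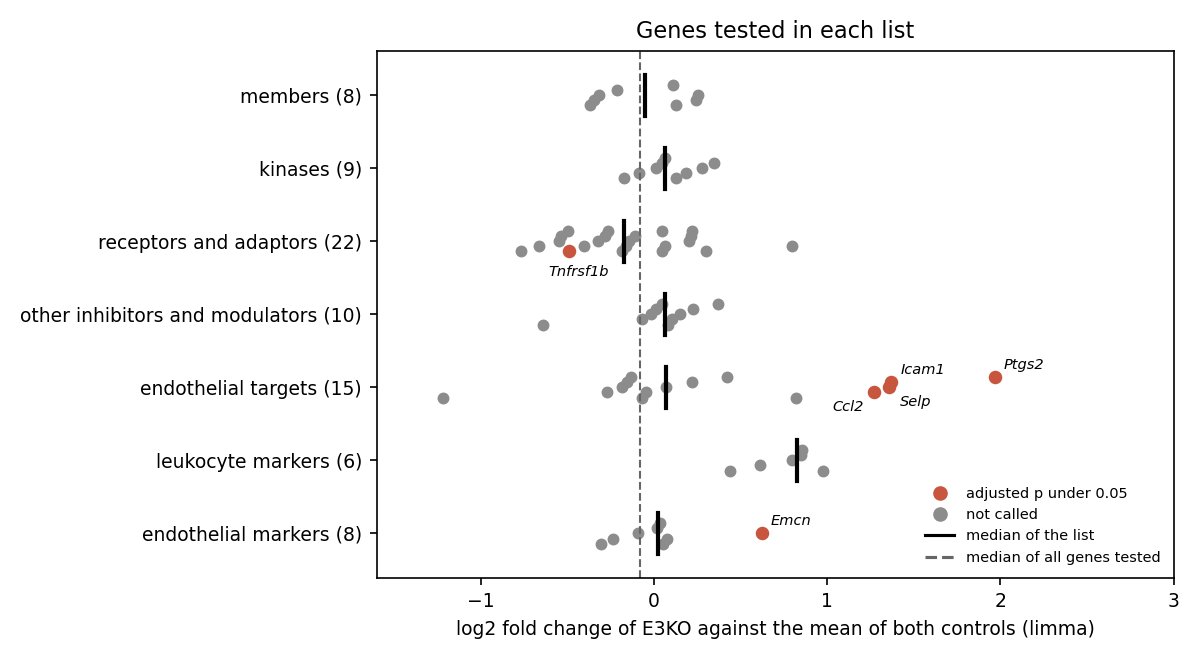
Log2 fold change of E3KO against the mean of both controls (limma) for the tested genes of each list, with the number tested in brackets; red points have an adjusted p under 0.05, black bars are list medians and the dashed line is the median of all genes tested. The 8 members lie between -0.37 and 0.25 with none called, and the 4 called targets lie between 1.27 and 1.97.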

How the data were processed

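The deposited tables give FPKM per library, which the authors estimated with Cufflinks (version 1.0.3 in the submitters' notes) from reads aligned to mm10 with TopHat2. The tables also hold FPKM per group and, per pair of groups, fold changes and p-values from Cuffdiff. These comparison columns were not used. The 9 library columns were identical between tables. Library values are listed by symbol, so 3749 loci whose symbol is not unique were dropped together with 2 loci without values, which left 33353 symbols. The depth is unknown, since FPKM keep no counts, so no counting interval was given.

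log2(FPKM + 1) values of the 9 libraries were modelled by group with limma (version 3.58.1, R 4.3.3), for the 10605 genes with a group mean of at least 2 FPKM, with Benjamini-Hochberg adjustment over all of them and 95% intervals that are not adjusted. Fold changes on this scale understate those of low genes. The fit was tested on simulated data. For single genes the 3 E3KO and 6 control libraries were exchanged in an exact permutation test on log2(FPKM + 0.1), two-sided with 84 splits, because 3 against 3 cannot reach 0.05. Replicate numbers were not used to pair the libraries in the main fit. Motifs were searched with Python 3.11.15.

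The members and the gene lists were chosen with earlier results of these data known. The members are all named. Of each other list the called genes are named (at most 3 in each direction, by size of the fold change) or, where fewer than 2 are called, also the 2 most abundant. The few others are said to be named after their values were seen, or stand as a complex partner, an overlapping locus, a check of labels or cell type, or a promoter match. Likeness was ranked by Pearson r over 9 libraries. Commd1 and Eng share a locus with another gene and were not tested, and Adgre1 and Otulin were matched through older symbols.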

Additional observations from a re-analysis of the deposited data

How the results depend on the processing

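The count of members called stayed at 0 under every alternative fitted. Over all genes, calls against ECtrl went from 239 to 95 without a filter on low values, to 1 with the replicate number as a block and to 0 with only the groups compared in the fit. Against EfCtrl they went from 101 to 17 without the filter and to 1 with the replicate block, and against both controls from 509 to 202 with the replicate block. Deviations from the group means had r from -0.04 to 0.12 over 9 pairs of libraries with the same replicate number. Over 18 pairs with different numbers r was from -0.21 to 0.08. Values over 0.1 were found in 2 of the 9 pairs and in 0 of the 18. The labels give no pairing by number, and whether libraries of the same number were prepared together was not tested. Leaving out 1 library gave 0 to 215 calls against ECtrl, 1 to 218 against EfCtrl, 9 to 408 against both, the lowest of each without E3KO replicate 3, and 0 to 4 between the controls. Calls among the endothelial targets against ECtrl went from 4 to 2 with a pseudocount of 0.1 and to 0 without the filter, with the block or with only the groups compared, and ranged from 0 to 2 with 1 library left out. Against EfCtrl they went from 0 to 2 with a mean-variance trend or only the groups compared and ranged from 0 to 5, and against both controls they ranged from 0 to 5. The single call among receptors and adaptors, Tnfrsf1b, was lost (0 called) with median centring, a mean-variance trend or the block. With 1 library left out 0 to 1 of these genes were called, never Tnfrsf1b, and the 1 was Il1r1 without E3KO replicate 1. Centring moved all genes by 0.07 on the log2 scale in each comparison with E3KO, and by 0.0019 between the controls. The exact permutation p fell from 0.0595 to 0.0357 for Rel with a pseudocount of 1 or without EfCtrl replicate 1, and without ECtrl replicate 2 from 0.107 to 0.0179 for Rela and from 0.0714 to 0.0357 for the ratio of Nfkbia to Rela. Leaving out any other library gave p from 0.0536 to 0.143 for Rel, from 0.107 to 0.357 for Rela and from 0.0893 to 0.214 for the ratio. The log2 ratio of Nfkbia to Rela ranged from 0.37 to 0.54 with 1 library left out. Relb turned from higher to lower without E3KO replicate 1, and its log2 fold change with 1 library left out ranged from -0.39 to 0.44 against ECtrl, from -0.15 to 0.67 against EfCtrl and from -0.27 to 0.56 against both, and from -0.33 to 0.63 in the permutation test. Between the controls, where none of these genes was called, some estimates changed sign with 1 library left out, with ranges of -0.058 to 0.038 for Nfkb1, -0.031 to 0.074 for Nfkb2, -0.035 to 0.23 for Rela, -0.0059 to 0.14 for Nfkbia, -0.18 to 0.028 for Nfkbie, -0.12 to 0.12 for Ikbkb, -0.061 to 0.46 for Selp, -0.25 to 0.20 for Ccl2, -0.22 to 0.52 for Ptgs2 and -0.11 to 0.32 for Csf1. The cause of these changes was not tested. FPKM keep no depth, so what depth limits could not be computed.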

Other observations

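Among the endothelial markers used to check the cell type, Emcn, a sialomucin of the endothelial surface, was at 822, 1095 and 1033 FPKM in ECtrl, at 877, 1044 and 966 in EfCtrl and at 1557, 1452 and 1477 in E3KO. Against the mean of both controls it rose by a log2 fold change of 0.63 (adjusted p = 0.026, limma), and all 3 E3KO libraries were above all 6 controls. It was not called against ECtrl (adjusted p = 0.0572) or EfCtrl (0.0692) singly, nor without the library labelled E3KO replicate 1 (0.054), and it was called in 4 of the 9 limma fits that left out 1 library. The other 7 measured endothelial markers did not pass the test, with log2 fold changes between -0.31 and 0.08, and between -0.26 and 0.16 without the library labelled E3KO replicate 1. Of the 6 smooth muscle and fibroblast markers tested, 6 had lower estimates against the mean of both controls. Their log2 fold changes ran from -1.61 to -0.10 (median -1.09 beside -0.08 over all genes). There were 3 with an unadjusted p under 0.05 (23.8% of all genes) and 0 called (4.8%). Of the 6 markers, Col1a1 passed the FPKM minimum only through EfCtrl, at means of 1.60 in ECtrl, 4.37 in EfCtrl and 0.366 in E3KO. Passing through its high group favoured these directions for Col1a1, here and in the comparisons with EfCtrl below, so its part in the counts shows nothing. Against ECtrl 4 were lower and 2 higher (median -0.71 beside -0.08 over all genes), with 0 by unadjusted p (20.1% of all genes) and 0 called (2.25%). Against EfCtrl 6 were lower (median -1.46 beside -0.08), with 4 by unadjusted p (17.7%) and 0 called (0.952%). In EfCtrl against ECtrl 6 were higher (median 0.74 beside -0.01), with 0 by unadjusted p (1.84%) and 0 called (0.0%). The most abundant of them, the contractile gene Acta2, was at 4.31, 19.4 and 15.6 FPKM in ECtrl, at 11.6, 28.1 and 35.1 in EfCtrl and at 4.49, 6.32 and 5.75 in E3KO, so ECtrl replicate 1 overlapped E3KO.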
